A study of Homo sapiens with 6 samples.

Results

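The SLC25 family consists of small membrane proteins, most of them in the inner mitochondrial membrane, that exchange nucleotides, metabolites, cofactors and ions between the cytosol and the matrix. Its members were chosen by gene symbol, by a rule that uses no measured value: every protein-coding SLC25A gene, the uncoupling proteins UCP1, UCP2 and UCP3, and MTCH1 and MTCH2. All 53 were found among the 67140 genes of the deposited table. They were measured by RNA-seq in 6 libraries labelled CAPAN-2, an established line of human pancreatic ductal adenocarcinoma: 3 control libraries without SIRT4 overexpression and 3 libraries with SIRT4 overexpression. The vector, the length of overexpression and whether the cells were clones or pools are not stated in the sources used here. No label says that replicates came from separate cultures, so the spread behind each p-value may be technical.

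A carrier of the inner membrane is built from a repeated module of paired membrane helices and moves its substrate by alternating between a cytosol-facing and a matrix-facing state. The outer membrane proteins MTCH1, MTCH2 and SLC25A46 are counted among the carriers here by family only. The ADP/ATP carriers send ATP made by oxidative phosphorylation out of the matrix and bring ADP in, and the aspartate/glutamate carriers form part of the malate-aspartate shuttle that moves reducing equivalents. SIRT4 is a sirtuin of the mitochondrial matrix and is reported to bind the ADP/ATP carriers. The comparison of the groups therefore asks whether carrier transcripts, sorted by substrate, differ when SIRT4 is overexpressed.

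SIRT4 itself was read at 2.47, 1.96 and 1.83 CPM in control replicates 1 to 3 and 3.31, 2.80 and 3.60 CPM in SIRT4 replicates 1 to 3, where CPM scales the deposited estimated counts to the TMM-adjusted library total. The 3 SIRT4 libraries lay above every control library, but the gene did not pass the threshold (log2 fold change 0.63, SE 0.21, edgeR adjusted p = 0.0752 with Benjamini-Hochberg adjustment over all tested genes). It passed in 1 of 15 alternatives, so these counts alone do not establish the overexpression for which the group is named. Library totals ran from 50945991 to 65156041. All 8 epithelial markers were read, and their summed level was 2416 to 2536 CPM for controls and 4507 to 4651 CPM with SIRT4: KRT8, KRT18 and KRT19 were higher, SOX9 was lower, and the part of this shift in the carrier results was not tested. Of the fibroblast markers, COL1A2, DCN and FAP were listed at 0 in all libraries and COL1A1 was read at 175 and 169.6 CPM on average for controls and with SIRT4. The summed leukocyte markers did not exceed 0.349 CPM in any library, nor the acinar and endocrine markers 0.175 CPM. In bulk RNA, fewer cells of a type and less RNA per cell cannot be told apart.

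Of the 53 carriers, 48 passed the low-count filter and were tested within the fit over all 20786 genes. In SIRT4 libraries 9 were higher and 2 lower at an adjusted p under 0.05, beside 9.38% and 7.67% of all tested genes, and 37 did not pass. The 11 called carriers are 22.9% of those tested, beside 17.1% of all tested genes. Among tested protein-coding genes 21.8% were called, and among tested genes with a mean level between the quartiles of the tested carriers, 11.5 and 65.1 CPM, 22.5% were called. The share of carriers called was therefore near that of comparable genes, and the count is not a result about the family as a whole. The higher carriers were the acylcarnitine carrier SLC25A20, the aspartate/glutamate carriers SLC25A12 and SLC25A13, the peroxisomal carrier SLC25A17, the ATP-Mg/phosphate carrier SLC25A24, the ADP/ATP carrier SLC25A5 and the outer membrane proteins MTCH1, MTCH2 and SLC25A46. The lower carriers were the ADP/ATP carrier SLC25A6 and the iron carrier SLC25A37.

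The median log2 fold change of the tested carriers was 0.07, beside -0.02 over all tested genes, and 27 of 48 had a positive value. The groups did not overlap for 19 of the 48 carriers, or 39.6%, beside 37.6% of all tested genes. No called carrier changed as much as 2-fold. The summed level of all 53 carriers was 2793, 2752 and 2798 CPM in control replicates 1 to 3 and 2939, 2962 and 2999 CPM in SIRT4 replicates 1 to 3, so each SIRT4 library was above each control library. SLC25A5, SLC25A3, SLC25A6 and MTCH1 made up much of that sum.

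**Figure D1:**
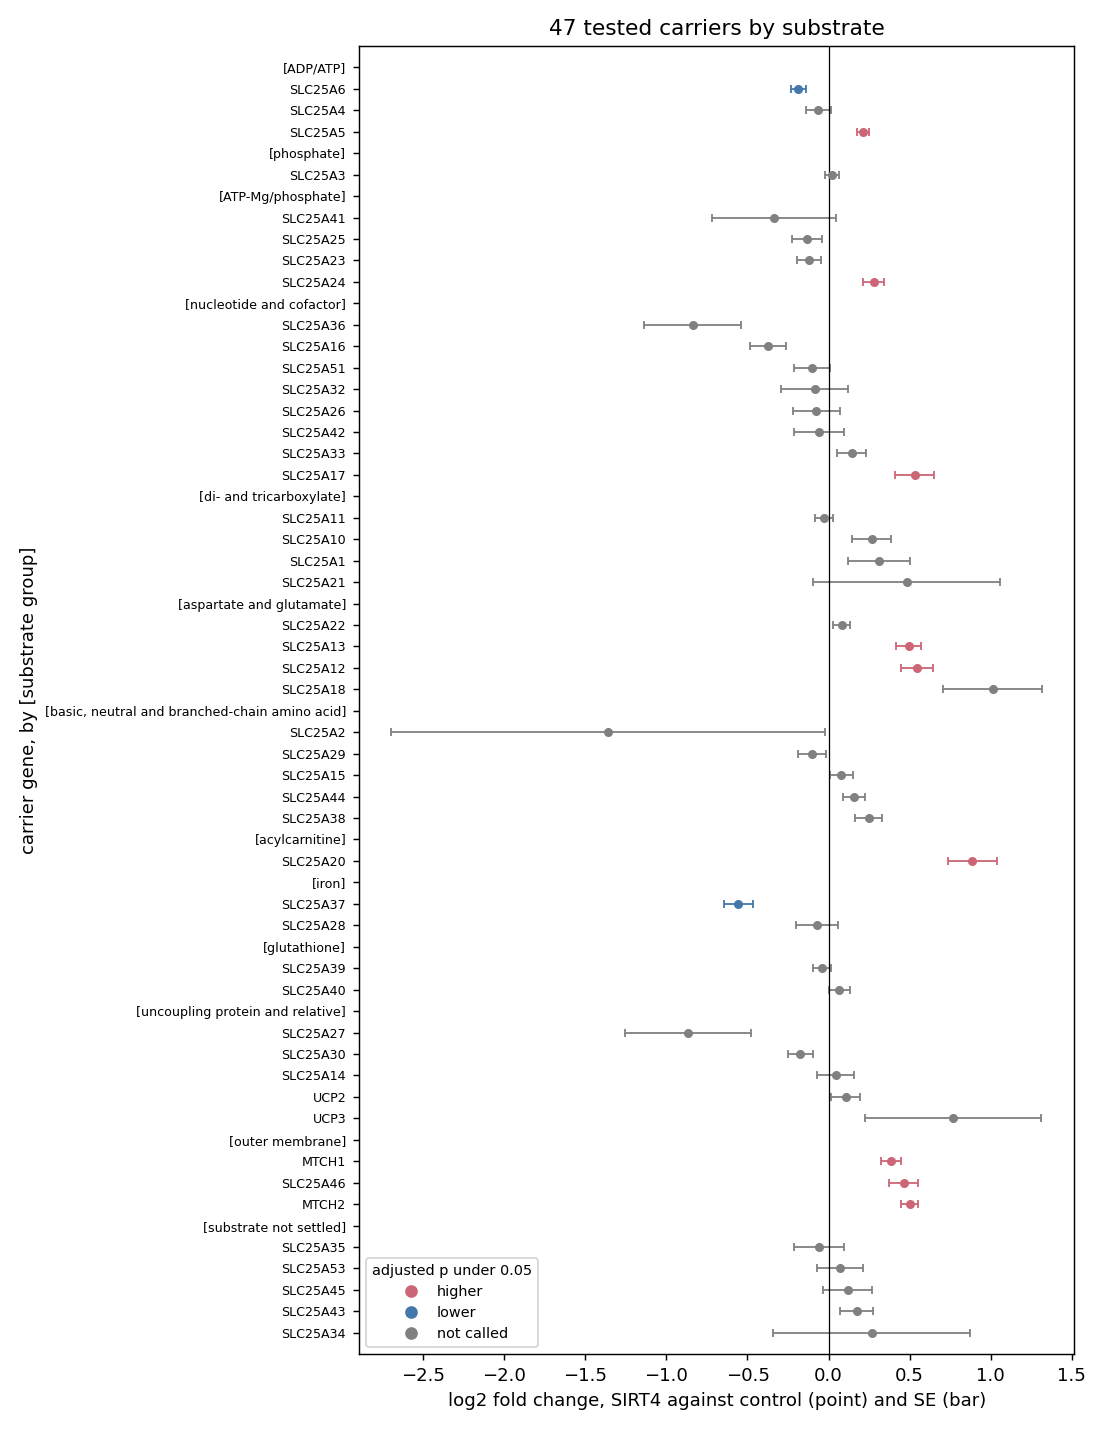
Log2 fold change of SIRT4 against control libraries (x axis) for 47 tested carriers, grouped by substrate (y axis); points are edgeR estimates, bars their SE, and colour marks an adjusted p under 0.05. The 3 outer membrane proteins lie together to the right of 0, whereas the ADP/ATP carriers SLC25A5 (0.21) and SLC25A6 (-0.19) lie on opposite sides.

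The ADP/ATP carriers divided (gene coordinates are GRCh38, from GENCODE 29). SLC25A5 (ENSG00000005022, chromosome X, 119468400 to 119471319, plus strand) encodes ANT2, the isoform typical of proliferating cells, and it was read at 464, 471 and 499 CPM in control replicates 1 to 3 and 553, 559.8 and 548 CPM in SIRT4 replicates 1 to 3. All 3 SIRT4 libraries lay above all control libraries (log2 fold change 0.21, SE 0.04, edgeR adjusted p = 0.00889). SLC25A6 (ENSG00000169100, chromosome X, 1386152 to 1392724, minus strand), in the pseudoautosomal region and encoding the broadly expressed ANT3, was read at 232, 224 and 234 CPM in control replicates 1 to 3 and 193, 208 and 206 CPM in SIRT4 replicates 1 to 3. Here the order was the opposite, with every SIRT4 library below every control library (log2 fold change -0.19, SE 0.05, edgeR adjusted p = 0.0279). SLC25A6 did not pass when control replicates 1 or 3, or SIRT4 replicates 1, 2 or 3, were left out singly (edgeR adjusted p = 0.0798, 0.0976, 0.0905, 0.0586 and 0.0701), nor with the replicate number as a block (edgeR adjusted p = 0.0679).

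SLC25A4, which encodes ANT1, the isoform of heart and skeletal muscle, was read at 29.2, 28.7 and 31.4 CPM in control replicates 1 to 3 and 27.2, 28.5 and 29.6 CPM in SIRT4 replicates 1 to 3. The groups overlapped and it did not pass (log2 fold change -0.06, SE 0.08, edgeR adjusted p = 0.639). SLC25A31, the testis isoform ANT4, was listed at 0 in 5 libraries and at 0.156 CPM in SIRT4 replicate 3, and was not tested.

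Per kilobase of annotated exon, which allows for length when genes are compared, SLC25A5 was the highest of the 53 carriers, at a mean of 319 CPM per kb for controls and 369 with SIRT4. SLC25A6 was next, at 106 CPM per kb for controls and 93.5 with SIRT4, and SLC25A4 was far below both, at 6.14 CPM per kb for controls and 5.87 with SIRT4. On this scale SLC25A5 supplied 73.9% ± 0.63 of ADP/ATP carrier transcripts for controls and 78.8% ± 0.678 with SIRT4 (SD, n = 3 each). SLC25A6 supplied 24.7% ± 0.634 and 19.95% ± 0.627 in the same groups. The length used merges every annotated exon of a gene and may exceed the expressed transcript, so ranks and shares depend on the annotation. SLC25A3 had more CPM than SLC25A6, a mean of 297 beside 230 for controls, but ranked below it per kilobase. The log2 ratio of SLC25A6 to SLC25A5 within a library, which does not depend on library scaling, was -1.05 ± 0.05 for controls and -1.45 ± 0.06 with SIRT4 (SD, n = 3 each; exact two-sided permutation p = 0.1, 0.175 after Benjamini-Hochberg adjustment over 14 pairs). With 3 libraries against 3 the smallest p of this test is 0.1. Ratios between pairs, here and below, use CPM not divided by exon length. They compare the groups and do not tell which gene of a pair was the more abundant. The SLC25A4 to SLC25A5 ratio was -3.98 ± 0.03 for controls and -4.26 ± 0.07 with SIRT4 (SD, n = 3 each), and the groups did not overlap. For both every SIRT4 library lay below every control library.

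**Figure D2:**
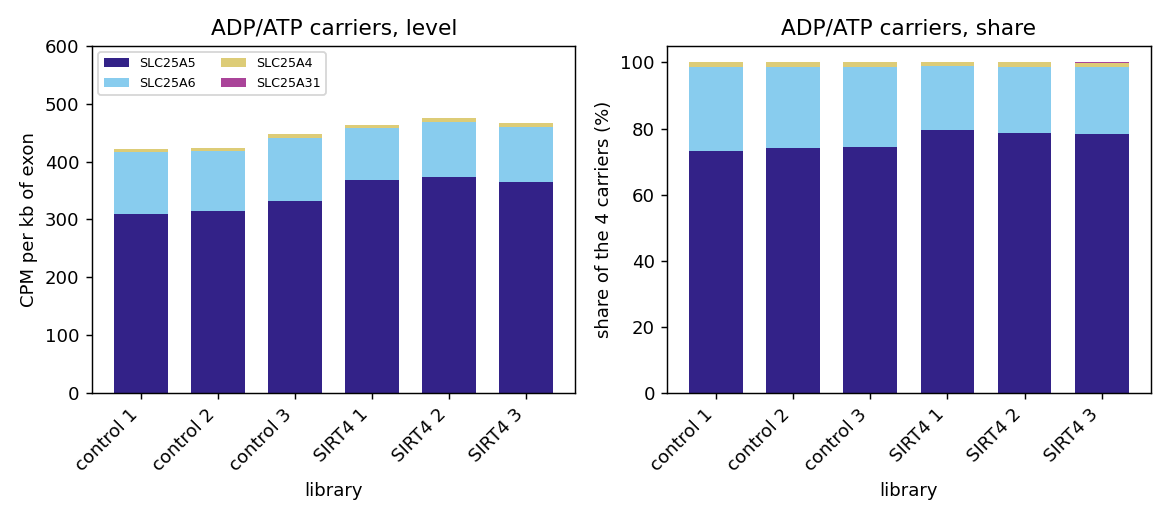
Levels of the 4 ADP/ATP carriers in CPM per kb of exon (left, y axis) and their shares in percent (right, y axis) in each of the 6 libraries (x axis), stacked by gene. SLC25A5 makes up 73.9% of the total on average in control and 78.8% in SIRT4 libraries, and SLC25A6 most of the rest.

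These carriers have processed pseudogenes that could share their reads. The 9 SLC25A5 pseudogenes in the table summed to 19 to 59 estimated counts per library, at most 0.218% of SLC25A5, and the 6 SLC25A6 pseudogenes to at most 6. Adding them to their parents left the log2 fold changes at 0.21 and -0.19. How reads that match several loci were counted is not stated. Such reads may be missing from parent and pseudogene alike, so this cannot show that sharing had no effect. Whether the Y copy of the pseudoautosomal SLC25A6 was masked is not stated either. Its level, rank and share are therefore uncertain. An antisense gene, SLC25A5-AS1, shares 227 exonic bases with SLC25A5 and was read at 4.58 and 4.48 CPM on average for controls and with SIRT4. Whether counting used the strand is not stated, so reads of overlapping antisense genes cannot be told apart here or at the carriers named further on.

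The 250 bases before the RefSeq transcription start (GRCh38.p14) are shown for the ADP/ATP carriers that moved in opposite directions and for SLC25A20, the called carrier with the largest fold change, described further on. They are read 5′ to 3′ on the strand of the gene, at chrX:119468194-119468443 (plus) for SLC25A5, chrX:1392114-1392363 (minus) for SLC25A6 and chr3:48898883-48899132 (minus) for SLC25A20. Capitals mark matches to the TATA box searched as TATAAA, to the box CCAAT, to the ETS core searched as CCGGAAG or to an NRF1 palindrome on either strand.
SLC25A5: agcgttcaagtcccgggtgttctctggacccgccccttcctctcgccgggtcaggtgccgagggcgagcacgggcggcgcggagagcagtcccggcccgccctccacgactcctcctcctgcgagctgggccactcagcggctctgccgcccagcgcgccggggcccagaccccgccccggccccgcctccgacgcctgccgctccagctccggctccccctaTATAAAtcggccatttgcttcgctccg
SLC25A6: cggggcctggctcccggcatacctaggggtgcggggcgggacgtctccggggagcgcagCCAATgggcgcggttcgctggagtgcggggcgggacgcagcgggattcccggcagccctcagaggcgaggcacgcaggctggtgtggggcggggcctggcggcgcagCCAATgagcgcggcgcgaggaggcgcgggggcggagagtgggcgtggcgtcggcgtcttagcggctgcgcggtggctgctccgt
SLC25A20: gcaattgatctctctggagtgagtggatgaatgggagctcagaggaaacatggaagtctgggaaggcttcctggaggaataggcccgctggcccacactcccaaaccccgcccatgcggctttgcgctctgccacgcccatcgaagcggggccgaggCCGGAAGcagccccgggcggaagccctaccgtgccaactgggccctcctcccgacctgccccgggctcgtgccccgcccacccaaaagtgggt

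The SLC25A5 promoter held 1 TATA box and no CCAAT box, the SLC25A6 promoter 2 CCAAT boxes and no TATA box, and the SLC25A20 promoter 1 ETS core. GC content was 73.6%, 76.8% and 66.0%. The table of promoters held 45 of the 53 carriers. The ETS core was found in 11 of these 45 (24.4%), beside 10.2% of 27305 genes of all types with a promoter entry, in 4 of the 9 carriers that were higher, in 6 of 30 that were not called and in 0 of 1 that was lower. No test of these counts was run. CCAAT was found in 46.7% of carriers and 37.0% of all genes, TATAAA in 6.67% and 13.0%, and the NRF1 site in 8.89% and 6.20%. CCAAT was held by 2 of the 9 higher and 18 of the 30 carriers not called, TATAAA by 1 of 9 and 2 of 30, and the NRF1 site by 0 of 9 and 2 of 30. None of the matches in the printed promoters overlap. A match describes the letters and does not show that a factor binds.

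SLC25A3, the phosphate carrier that supplies ATP synthase and also carries copper, was read at 298, 292 and 301 CPM in control replicates 1 to 3 and 312, 304 and 289 CPM in SIRT4 replicates 1 to 3. The groups overlapped (log2 fold change 0.02, SE 0.04, edgeR adjusted p = 0.77). The ATP-Mg/phosphate carriers adjust the matrix pool of adenine nucleotides and several bind calcium. Of these, SLC25A24 (ENSG00000085491, chromosome 1, 108134036 to 108200849, minus strand) rose. It was read at 63.2, 67.4 and 65.6 CPM in control replicates 1 to 3 and 74.4, 79.5 and 84.2 CPM in SIRT4 replicates 1 to 3. The groups did not overlap (log2 fold change 0.28, SE 0.06, edgeR adjusted p = 0.0213), but SLC25A24 did not pass without control replicates 1 or 3, or without SIRT4 replicates 2 or 3, each left out alone (edgeR adjusted p = 0.0655, 0.0586, 0.0616 and 0.0626). Its exons also share 1361 bases with the genes AL359258.2 and AL359258.3 on the opposite strand.

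The other calcium-linked carriers SLC25A23 and SLC25A25 had log2 fold changes of -0.12 (SE 0.07) and -0.13 (SE 0.09) and did not pass. SLC25A23 was at 45.6 ± 1.84 CPM for controls and 42.0 ± 2.97 CPM with SIRT4 (SD, n = 3 each). SLC25A41, the member that lacks the calcium-binding part, was at 0.99 ± 0.324 CPM for controls and 0.786 ± 0.219 CPM with SIRT4 (SD, n = 3 each), near the lower end of what was read. The log2 ratio of SLC25A23 to SLC25A24 was -0.52 ± 0.10 for controls and -0.91 ± 0.18 with SIRT4 (SD, n = 3 each), and the groups did not overlap, and that of SLC25A23 to SLC25A25 was 1.16 ± 0.10 for controls and 1.17 ± 0.14 with SIRT4 (SD, n = 3 each), and the groups overlapped.

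The aspartate/glutamate carriers rose together. SLC25A12 (ENSG00000115840, chromosome 2, 171784370 to 171999859, minus strand), encoding aralar, was read at 23.5, 21.98 and 22.8 CPM in control replicates 1 to 3 and 34.0, 28.9 and 36.7 CPM in SIRT4 replicates 1 to 3. SLC25A13 (ENSG00000004864, chromosome 7, 96120220 to 96322147, minus strand), encoding citrin, was read at 47.8, 42.3 and 45.5 CPM in control replicates 1 to 3 and 61.9, 60.2 and 68.7 CPM in SIRT4 replicates 1 to 3. For both genes all SIRT4 libraries lay above all control libraries. Both passed (SLC25A12 log2 fold change 0.55, SE 0.10, edgeR adjusted p = 0.00845, and SLC25A13 log2 fold change 0.49, SE 0.08, edgeR adjusted p = 0.0039). Their ratio differed by less than the spread between libraries: the log2 ratio of SLC25A12 to SLC25A13 was -0.97 ± 0.04 for controls and -0.93 ± 0.10 with SIRT4 (SD, n = 3 each), and the groups overlapped. SLC25A12 shares 181 exonic bases with METAP1D on the opposite strand.

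The glutamate carriers SLC25A22 and SLC25A18 import glutamate with a proton. SLC25A22, the more abundant per length of exon, was at 118 ± 5.50 CPM for controls and 125 ± 2.69 CPM with SIRT4 (SD, n = 3 each) and did not pass (log2 fold change 0.08, SE 0.05, edgeR adjusted p = 0.355). SLC25A18 was scarce, at 2.09, 0.97 and 1.65 CPM in control replicates 1 to 3 and 3.24, 2.58 and 3.70 CPM in SIRT4 replicates 1 to 3. Its groups did not overlap, yet it missed the threshold (log2 fold change 1.01, SE 0.30, edgeR adjusted p = 0.0568). It passed in DESeq2 (adjusted p = 0.0144), without the low-count filter (0.0443), with values divided by 4 (0.0463), with the replicate number as a block (0.0466) and without control replicate 1 (0.0491). SLC25A18 over SLC25A22 gave a log2 ratio of -5.87 ± 0.36 for controls and -5.10 ± 0.23 with SIRT4 (SD, n = 3 each), and the groups did not overlap.

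The soluble enzymes of the malate-aspartate shuttle did not follow 1 direction. Of GOT1, GOT2, MDH1 and MDH2, all tested, 2 were higher and 1 lower, beside 9.38% and 7.67% of all tested genes, with a median log2 fold change of 0.15 beside -0.02. The mitochondrial aminotransferase GOT2 rose from a mean of 64.3 to 89.1 CPM (log2 fold change 0.47, SE 0.06, edgeR adjusted p = 0.00167), while its cytosolic counterpart GOT1 fell from 195 to 124 CPM (log2 fold change -0.66, SE 0.05, edgeR adjusted p = 0.000161). The cytosolic malate dehydrogenase MDH1 rose by 0.19 on the log2 scale (edgeR adjusted p = 0.0349), and passed in 8 of 15 alternatives.

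**Figure D3:**
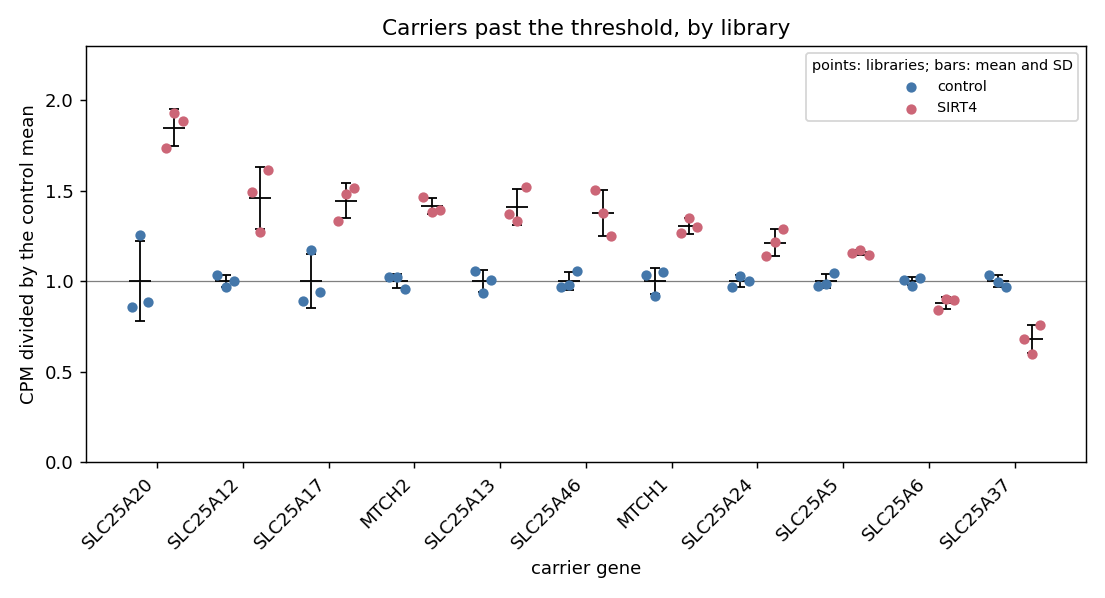
CPM divided by the mean of the control libraries (y axis, from 0) for the 11 carriers past the threshold (x axis), ordered by log2 fold change; points are the 3 libraries of each group and bars the mean and SD. SLC25A20 stands highest, at a log2 fold change of 0.89, and SLC25A37 lowest, at -0.56.

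The acylcarnitine carrier SLC25A20 (ENSG00000178537, chromosome 3, 48856931 to 48898993, minus strand), which brings acylcarnitines into the matrix for fatty acid oxidation, had the largest log2 fold change of the 11 called carriers. It was read at 13.2, 19.3 and 13.7 CPM in control replicates 1 to 3 and 26.7, 29.7 and 29.03 CPM in SIRT4 replicates 1 to 3. Control replicate 2 was the highest control, and all SIRT4 libraries lay above it (log2 fold change 0.89, SE 0.15, edgeR adjusted p = 0.00595). Of the 5 tested enzymes of the carnitine shuttle 2 were higher and none lower, beside 9.38% and 7.67% of all tested genes, with a median of -0.03 beside -0.02. CPT1A, which makes acylcarnitines at the outer membrane, rose from a mean of 205 to 297 CPM (log2 fold change 0.53, SE 0.05, edgeR adjusted p = 0.000432). CPT2, which turns them back into acyl-CoA in the matrix, rose by 0.25 on the log2 scale (edgeR adjusted p = 0.0398), a call kept in 6 of 15 alternatives.

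The 3 proteins of the family in the outer membrane were all called higher, beside 9.38% of all tested genes. MTCH2 (ENSG00000109919, chromosome 11, 47617315 to 47642623, minus strand), an insertase that places proteins with a membrane anchor into the outer membrane, was read at 92.8, 92.8 and 86.7 CPM in control replicates 1 to 3 and 133, 126 and 127 CPM in SIRT4 replicates 1 to 3. MTCH1 (ENSG00000137409, chromosome 6, 36968141 to 36986298, minus strand), its relative, was read at 195, 174 and 199 CPM in control replicates 1 to 3 and 239, 256 and 246 CPM in SIRT4 replicates 1 to 3. SLC25A46 (ENSG00000164209, chromosome 5, 110738136 to 110765161, plus strand), linked to the shape and division of mitochondria, was read at 28.9, 29.3 and 31.6 CPM in control replicates 1 to 3 and 44.98, 41.3 and 37.4 CPM in SIRT4 replicates 1 to 3. In each of the 3 genes every SIRT4 library was above every control library. MTCH2 moved most (log2 fold change 0.50, SE 0.05, edgeR adjusted p = 0.000656), then SLC25A46 (log2 fold change 0.46, SE 0.09, edgeR adjusted p = 0.00932) and MTCH1 (log2 fold change 0.39, SE 0.06, edgeR adjusted p = 0.00383). MTCH1 over MTCH2 gave a log2 ratio of 1.05 ± 0.14 for controls and 0.94 ± 0.09 with SIRT4 (SD, n = 3 each), and the groups overlapped. Of the outer membrane porins VDAC1, VDAC2 and VDAC3, VDAC2 was higher (log2 fold change 0.23, SE 0.05, edgeR adjusted p = 0.0198), beside 9.38% of all tested genes. It passed in 10 of 15 alternatives too, and the other porins did not pass.

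The iron carriers, or mitoferrins, feed haem and iron-sulphur cluster synthesis. SLC25A37 (ENSG00000147454, chromosome 8, 23528805 to 23575463, plus strand), encoding mitoferrin 1, fell. It was read at 64.4, 61.8 and 60.2 CPM in control replicates 1 to 3 and 42.4, 37.3 and 47.0 CPM in SIRT4 replicates 1 to 3, with every SIRT4 library below every control library (log2 fold change -0.56, SE 0.09, edgeR adjusted p = 0.0046). SLC25A28, encoding mitoferrin 2, was at 32.0, 30.9 and 22.8 CPM in control replicates 1 to 3 and 26.1, 28.3 and 27.2 CPM in SIRT4 replicates 1 to 3. Control replicate 3 was the lowest of its 6 values, the groups overlapped, and it did not pass (log2 fold change -0.07, SE 0.13, edgeR adjusted p = 0.78). SLC25A28 over SLC25A37 gave a log2 ratio of -1.12 ± 0.23 for controls and -0.62 ± 0.20 with SIRT4 (SD, n = 3 each), and the groups did not overlap. Per kilobase of annotated exon SLC25A28 was instead the higher, at 16.3 CPM per kb beside 7.63 for controls and 15.5 beside 5.18 with SIRT4.

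Of 10 tested genes of haem and iron-sulphur synthesis 3 were lower and none higher, beside 7.67% of all tested genes lower, and their median log2 fold change was -0.14. The iron-sulphur scaffold gene ISCU fell from a mean of 93.3 to 53.2 CPM (log2 fold change -0.81, SE 0.08, edgeR adjusted p = 0.000577). ALAS1, the first enzyme of haem synthesis, and PPOX, a later one, fell by 0.30 and 0.59 on the log2 scale (edgeR adjusted p = 0.00669 and 0.0102). SLC25A38, which imports glycine for haem synthesis, had a positive log2 fold change and no overlap between the groups, at 19.9 ± 1.11 CPM for controls and 23.6 ± 0.674 CPM with SIRT4 (SD, n = 3 each), but did not pass (log2 fold change 0.25, SE 0.08, edgeR adjusted p = 0.0821). In DESeq2 it passed (adjusted p = 0.04).

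Of the 9 tested carriers of nucleotides and cofactors 1 passed, beside 17.1% of all tested genes, so the count is no result about the group. SLC25A17 (ENSG00000100372, chromosome 22, 40769630 to 40819399, minus strand), which lies in the peroxisomal membrane and carries CoA, FAD and adenine nucleotides, was read at 15.001, 19.8 and 15.9 CPM in control replicates 1 to 3 and 22.5, 25.02 and 25.6 CPM in SIRT4 replicates 1 to 3. All SIRT4 libraries lay above all control libraries (log2 fold change 0.53, SE 0.12, edgeR adjusted p = 0.0216). It lost its call on leaving out control replicates 1 or 3, or SIRT4 replicates 2 or 3, singly (edgeR adjusted p = 0.0659, 0.0725, 0.0665 and 0.0676).

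SLC25A36, a carrier of pyrimidine nucleotides, was read at 133, 150.2 and 127 CPM in control replicates 1 to 3 and 94.4, 89.6 and 45.3 CPM in SIRT4 replicates 1 to 3. All SIRT4 libraries lay below the controls, but SIRT4 replicate 3 was far below the other 2, and the gene did not pass (log2 fold change -0.84, SE 0.30, edgeR adjusted p = 0.136). Without SIRT4 replicate 3 the log2 fold change was -0.56 and the edgeR adjusted p = 0.008. DESeq2 and limma-voom gave adjusted p-values of 0.00223 and 0.0466 on all 6 libraries. SLC25A33, the other pyrimidine nucleotide carrier, was at 30.4 ± 2.07 CPM for controls and 33.5 ± 2.80 CPM with SIRT4 (SD, n = 3 each) and did not pass. SLC25A33 over SLC25A36 gave a log2 ratio of -2.15 ± 0.03 for controls and -1.11 ± 0.57 with SIRT4 (SD, n = 3 each), and the groups did not overlap.

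SLC25A16, linked to CoA supply, was at 21.4 ± 2.21 CPM for controls and 16.5 ± 1.47 CPM with SIRT4 (SD, n = 3 each), with no overlap between the groups, and lay just outside the threshold (log2 fold change -0.37, SE 0.11, edgeR adjusted p = 0.056). It passed with library size alone, with the stricter filter, in DESeq2 and with values divided by 4 (adjusted p = 0.0444, 0.048, 0.0235 and 0.0468). The carriers of S-adenosylmethionine (SLC25A26), folate and FAD (SLC25A32), CoA (SLC25A42) and NAD (SLC25A51) had log2 fold changes from -0.10 to -0.06. None of them passed, and the groups overlapped in each. SLC25A51, the mitochondrial NAD carrier, was at 12.2 ± 1.09 CPM for controls and 11.4 ± 0.548 CPM with SIRT4 (SD, n = 3 each), while its near copy SLC25A52 did not exceed 0.123 CPM in any library and was not tested. Reads of this near-identical pair may be split between them, so both levels are uncertain, as is that of SLC25A32, which shares 2547 exonic bases with a gene on its own strand.

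No di- or tricarboxylate carrier passed. SLC25A1, the citrate carrier that supplies cytosolic acetyl-CoA for lipid synthesis, was read at 119.8, 115 and 122 CPM in control replicates 1 to 3 and 121, 127 and 195 CPM in SIRT4 replicates 1 to 3. SIRT4 replicate 3 alone stood above the rest, which lay within 115 to 127 CPM (log2 fold change 0.31, SE 0.19, edgeR adjusted p = 0.357). Without SIRT4 replicate 3 the log2 fold change was 0.07. By contrast ACLY, the enzyme that cleaves exported citrate, rose in the same libraries from a mean of 311 to 595 CPM (log2 fold change 0.94, SE 0.04, edgeR adjusted p = 8.02e-06).

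SLC25A10, the dicarboxylate carrier, was read at 69.2, 48.7 and 57.7 CPM in control replicates 1 to 3 and 69.9, 74.3 and 67.0 CPM in SIRT4 replicates 1 to 3. Control replicate 1 lay among the SIRT4 values (log2 fold change 0.27, SE 0.12, edgeR adjusted p = 0.192), and without it the gene passed, with a log2 fold change of 0.40 (edgeR adjusted p = 0.0399). The read-through gene that shares 1221 exonic bases with SLC25A10 on the same strand was listed at 0. How reads in shared exons were counted is not stated, so the level of SLC25A10 is uncertain. SLC25A11, which exchanges oxoglutarate for malate in the malate-aspartate shuttle, was at 67.8 ± 1.81 CPM for controls and 66.6 ± 2.69 CPM with SIRT4 (SD, n = 3 each) and did not pass (log2 fold change -0.03, SE 0.06, edgeR adjusted p = 0.811). SLC25A10 over SLC25A11 gave a log2 ratio of -0.22 ± 0.21 for controls and 0.08 ± 0.05 with SIRT4 (SD, n = 3 each), and the groups did not overlap. SLC25A21, the oxodicarboxylate carrier, did not exceed 1.05 CPM in any library.

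Of 8 enzymes of citrate and malate metabolism 4 were higher and 1 lower, beside 9.38% and 7.67% of all tested genes, with a median of 0.40 beside -0.02. Besides ACLY, the cytosolic aconitase ACO1 rose by 0.55 on the log2 scale (edgeR adjusted p = 0.00164). The cytosolic isocitrate dehydrogenase IDH1 fell by 0.52 (edgeR adjusted p = 0.00239).

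Of the 5 carriers of basic, neutral and branched-chain amino acids none passed. The ornithine carrier SLC25A15 was at 33.4 ± 1.24 CPM for controls and 35.3 ± 1.47 CPM with SIRT4 (SD, n = 3 each), the basic amino acid carrier SLC25A29 at 80.4 ± 6.14 CPM for controls and 74.9 ± 6.96 CPM with SIRT4 (SD, n = 3 each) and SLC25A44, which imports branched-chain amino acids, at 52.0 ± 1.67 CPM for controls and 58.0 ± 3.74 CPM with SIRT4 (SD, n = 3 each). Their log2 fold changes were 0.08, -0.10 and 0.16, and of these 3 only SLC25A44 had groups that did not overlap. SLC25A2, the intronless relative of SLC25A15, was near 0, with no more than 0.233 CPM in any library. SLC25A2 over SLC25A15 gave a log2 ratio of -5.67 ± 0.20 for controls and -6.01 ± 0.31 with SIRT4 (SD, n = 3 each), and the groups overlapped. With SLC25A2 at 0 in SIRT4 replicates 2 and 3, the added 0.5 CPM largely sets this ratio: its difference between groups was -0.34, and -0.22 with 1 CPM added.

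The glutathione carrier SLC25A39 and its relative SLC25A40 did not pass, with log2 fold changes of -0.04 (SE 0.06) and 0.07 (SE 0.06). Their log2 ratio was 1.06 ± 0.01 for controls and 0.96 ± 0.04 with SIRT4 (SD, n = 3 each), and the groups did not overlap.

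Among the uncoupling proteins and their relatives no member passed. UCP2, the form found in many tissues and able to exchange dicarboxylates, was read at 62.1, 53.2 and 56.7 CPM in control replicates 1 to 3 and 67.6, 61.0 and 56.4 CPM in SIRT4 replicates 1 to 3. The groups overlapped (log2 fold change 0.11, SE 0.09, edgeR adjusted p = 0.477). UCP3, the skeletal muscle form, did not exceed 0.917 CPM in any library (edgeR adjusted p = 0.397), and UCP1, the heat-producing form of brown fat, was listed at 0 in all 6 libraries. UCP2 over UCP3 gave a log2 ratio of 6.02 ± 0.35 for controls and 5.69 ± 0.33 with SIRT4 (SD, n = 3 each), and the groups overlapped. Here too the low gene makes the added CPM count: the difference was -0.33 with 0.5 CPM added and -0.18 with 1 CPM.

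The relatives SLC25A14, SLC25A30 and SLC25A27 had log2 fold changes of 0.04, -0.17 and -0.87. SLC25A30 was at 24.8 ± 0.588 CPM for controls and 22.01 ± 0.802 CPM with SIRT4 (SD, n = 3 each) and its groups did not overlap (log2 fold change -0.17, SE 0.08, edgeR adjusted p = 0.171). SLC25A27, named UCP4 and known from brain, did not exceed 2.05 CPM. SLC25A14 over SLC25A30 gave a log2 ratio of -0.62 ± 0.10 for controls and -0.41 ± 0.21 with SIRT4 (SD, n = 3 each), and the groups overlapped.

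The 7 carriers whose substrate is not settled included 5 tested genes, none of which passed. Their log2 fold changes ran from -0.06 (SLC25A35) to 0.27 (SLC25A34), with SLC25A43, SLC25A45 and SLC25A53 between them. SLC25A43 was at 16.9 ± 1.51 CPM for controls and 19.1 ± 1.17 CPM with SIRT4 (SD, n = 3 each), with no overlap between the groups (log2 fold change 0.17, SE 0.10, edgeR adjusted p = 0.308). SLC25A35 shares 1293 exonic bases with RANGRF on the opposite strand. SLC25A47, a liver gene, and SLC25A48 were listed at 0 in 5 and 4 libraries and were not tested.

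**Figure D4:**
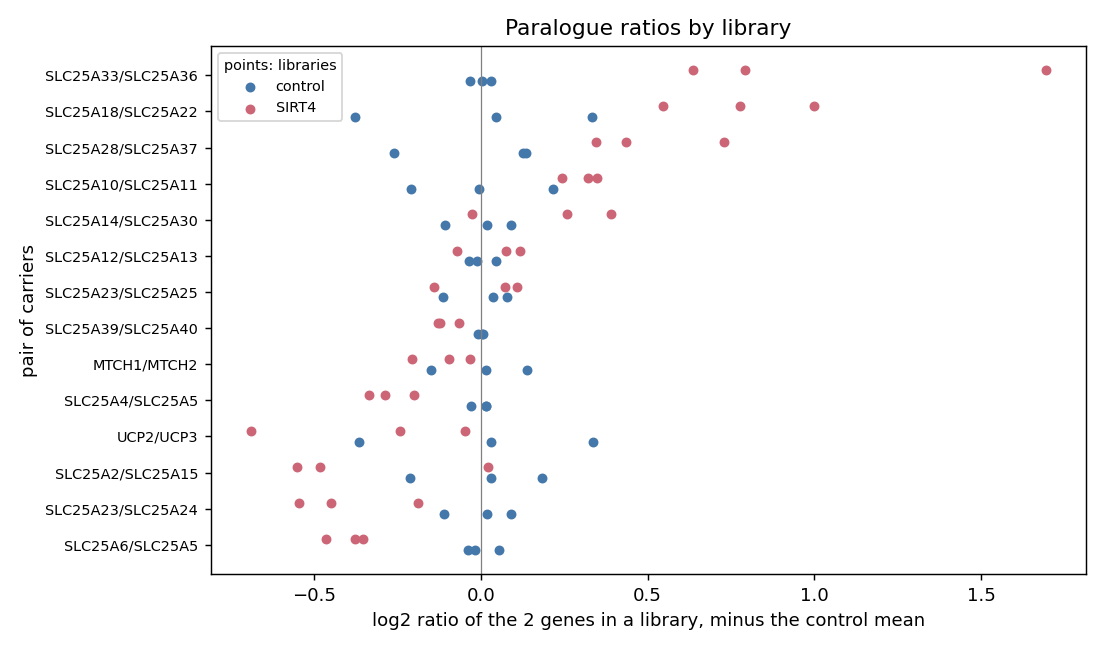
Log2 ratio of each pair of carriers within a library, minus the control mean (x axis), for the 14 pairs with both genes tested (y axis); each point is a library. In 8 pairs the SIRT4 libraries do not overlap the controls, and SLC25A33/SLC25A36 spreads most, with SIRT4 replicate 3 far to the right.

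In 8 of the 14 pairs of related carriers the groups did not overlap in their ratio, each with an exact two-sided permutation p of 0.1, the smallest that 3 against 3 libraries allow. Of single tested genes, 37.6% had groups that did not overlap in CPM; the share among ratios of other gene pairs was not computed. The other 6 pairs had exact permutation p-values of 0.2 to 0.8. After Benjamini-Hochberg adjustment over the 14 pairs the lowest value was 0.175, so no ratio passed. The largest difference between groups was 1.04 on the log2 scale, for SLC25A33/SLC25A36, and the next was 0.77, for SLC25A18/SLC25A22.

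Carriers reach the inner membrane through the receptor TOMM70, the small TIMM chaperones and the TIMM22 complex. Of 14 tested genes of this import machinery and of neighbouring translocases 1 was higher and none lower, near the 9.38% and 7.67% of all tested genes, with a median of 0.01. The gene was TIMM23, the channel for proteins with a presequence (log2 fold change 0.24, SE 0.07, edgeR adjusted p = 0.0427), and it passed in 8 of 15 alternatives. Of 16 ATP synthase genes, whose product the ADP/ATP carriers export, 6 were higher and none lower, beside 9.38% and 7.67% of all tested genes, with a median of 0.27 beside -0.02. ATP5PD and ATP5MC3, subunits of the stalk and of the rotor ring, rose by 0.41 and 0.51 on the log2 scale (edgeR adjusted p = 0.000635 and 0.000839).

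Of 10 inner membrane carriers outside the family 1 was higher and 1 lower. For these and the short lists that follow, 9.38% of all tested genes were higher and 7.67% lower, so 1 call in a list is no result about it. SFXN5 rose by 0.69 and SFXN3, a relative in the sideroflexin family, fell by 0.40 on the log2 scale (edgeR adjusted p = 0.00409 and 0.00824). The pyruvate carrier genes MPC1 and MPC2 did not pass. Of 8 genes, made up of LETM1 and those of the calcium uniporter, only MCUB passed. MCUB, a subunit that dampens the uniporter current, was higher (log2 fold change 0.29, SE 0.07, edgeR adjusted p = 0.0244), a call kept in 9 of 15 alternatives. Of 7 partners of the permeability pore only PPIF, or cyclophilin D, passed (log2 fold change 0.37, SE 0.09, edgeR adjusted p = 0.0289), and it did so in 10 of 15 alternatives. Of 7 genes that use NAD or thiamine pyrophosphate PDHB was higher by 0.63 and NADK2, which makes mitochondrial NADP, was lower by 0.28 on the log2 scale (edgeR adjusted p = 0.000355 and 0.034), the latter in 8 of 15 alternatives.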

How the data were processed

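RNA-seq was analysed in 6 libraries, 3 control and 3 with SIRT4 overexpression, grouped by the labels, from total RNA and NEBNext Ultra libraries per the labels' protocols. The submitters' processing notes name STAR, featureCounts, Subread, DESeq2 and hg38, with neither version nor role. The deposited values are whole numbers per Ensembl gene and were treated as estimated counts (already whole, so rounding changed nothing), since the authors' low values pile up at multiples of 4 (in control replicate 1, 792 genes at 3 and 1278 at 4); their derivation is not stated in the sources used here. Totals were 50945991 to 65156041 per library. Symbols came from a table of gene names (60357 of 67140 identifiers) and GENCODE 29 (296), which also gave GRCh38 coordinates and merged exon lengths. The main test was edgeR 4.0.16 in R 4.3.3 (TMM, filterByExpr, robust glmQLFit, glmQLFTest, with all 20786 tested genes adjusted together, threshold 0.05). It was also run on simulated data, but with changes larger than those of most called carriers, so that run does not bear on their calls. The SE is the absolute log2 fold change over the square root of F. Paralogue ratios used CPM plus 0.5, not divided by exon length, and exact permutation tests. The members follow a rule on gene symbols that uses no measured value, but the family itself, and the lists, pairs, motifs and tests, were chosen with earlier results of these data known. Named genes are all called carriers, the ADP/ATP carriers, UCP1 to UCP3, both members of each pair, and up to 4 called genes per context list; other carriers are named for completeness. The values of 1 tested carrier and 1 enzyme are not reported here, though both stay in the fit and the counts. Alternatives were other scalings, filters and tools (DESeq2 1.42.0, limma 3.58.1), division by 4, a replicate block, added pseudogene and read-through counts, and leaving out each library.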

Additional observations from a re-analysis of the deposited data

How the results depend on the processing

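Under 15 alternatives, 8 of the 11 called carriers passed throughout (SLC25A5, SLC25A12, SLC25A13, SLC25A20, SLC25A37, SLC25A46, MTCH1 and MTCH2), and 3 did not (SLC25A6, SLC25A17 and SLC25A24). The number of higher carriers was 7 to 11. Leaving out 1 library gave 7 to 9 higher and 1 to 2 lower carriers, and 1312 to 1570 higher and 978 to 1204 lower genes overall. These fits have fewer samples. The number of lower carriers was 4 in DESeq2 and 1 with the replicate block; the cause was not tested. With the replicate number as a block, SLC25A6 was lost and SLC25A18 gained, with 10 higher carriers, 1450 higher and 1140 lower genes overall. Deviations of same-numbered libraries correlated at 0.014, 0.0187 and -0.00931, and 1 of 3 matched its own number best. That shows no strong shared deviation, but cannot show whether same-numbered libraries were cultured or processed together.

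Among carriers that were not called, some changed sign, and the cause was not tested. With library size only, SLC25A3 was at -0.00938 on the log2 scale. When single libraries were left out, the ranges that crossed 0, lowest to highest, were -0.0679 to 6.67e-05 (SLC25A39), -0.0564 to 0.00384 (SLC25A11), -0.20 to 0.0216 (SLC25A28), -0.25 to 0.11 (SLC25A32), -0.22 to 0.0575 (SLC25A35), -0.042 to 0.13 (SLC25A14), -0.15 to 0.0538 (SLC25A26), -0.13 to 0.0557 (SLC25A42), -0.00431 to 0.12 (SLC25A53), -0.0406 to 1.07 (SLC25A21), -0.10 to 0.61 (SLC25A34) and -0.0436 to 0.0913 (ratio of SLC25A23/SLC25A25). No other carrier or pair reported here changed sign under the alternatives run. Genes below 1 CPM, 10 of the 53 carriers in both groups, are measured with few counts, and a difference in them was hardly detectable at this depth.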

Other observations

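An antisense gene fell at a locus whose carrier was read at low levels. SLC25A21-AS1, which shares exonic bases with SLC25A21 on the opposite strand and was looked up because of that overlap, was read at 2.43, 2.52 and 1.91 CPM in control replicates 1 to 3 and 1.35, 1.24 and 0.83 CPM in SIRT4 replicates 1 to 3. Every SIRT4 library was below every control library (log2 fold change -1.001, SE 0.27, edgeR adjusted p = 0.0384), and the gene passed in 9 of 15 alternatives, whose adjusted p-values ran from 0.0102 to 0.109. SLC25A21 was read at 0.291, 0.33 and 0.776 CPM in control replicates 1 to 3 and 1.05, 0.349 and 0.554 CPM in SIRT4 replicates 1 to 3 and did not pass (edgeR adjusted p = 0.639). Without a stated strand setting, reads from the 2 genes cannot be told apart where they overlap. SLC25A25-AS1, at a further carrier locus, was at 4.32 ± 0.248 CPM for controls and 4.75 ± 0.87 CPM with SIRT4 (SD, n = 3 each) and did not pass (edgeR adjusted p = 0.663). Of SLC25A5-AS1, SLC25A21-AS1 and SLC25A25-AS1, only SLC25A21-AS1 was called, beside 17.1% of all tested genes. Other genes that overlap carriers on the opposite strand, such as SLC25A30-AS1 and SLC25A34-AS1, were not looked up.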
